A study of Mus musculus with 25 samples.

Results

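The immunity-related GTPases (IRGs) of the mouse were followed at the transcript level through classical and alternative macrophage activation. The 6 genes Irgm1, Irgm2, Igtp, Iigp1, Tgtp1 and Tgtp2 were taken by their symbols out of 24411 gene symbols, and all 6 were found. RNA-seq counts were read in 25 libraries of 9 conditions. Bone marrow-derived macrophages (BMDMs) from C57BL/6 mice, grown with 25 ng/ml M-CSF for 4 days, made up 7 groups of 3 libraries. These were control BMDMs, BMDMs that received LPS (100 ng/ml) together with IFN-γ (100 U/ml) and were taken after 1, 4, 12 and 24 h, and BMDMs kept for 12 h with IL-4 or with IL-13 (each 10 ng/ml). RAW264.7 cells, an established mouse macrophage line, made up 2 groups of 2 libraries, a control and LPS alone (100 ng/ml) for 4 h. The control BMDMs were cultured for 4 h and served every BMDM comparison. Culture time and treatment therefore cannot be told apart in the 1 h, 12 h and 24 h contrasts. The authors describe the cells with IFN-γ and LPS as IFN-γ-primed. How long IFN-γ was present before LPS is not given in the sources used here. Hours of IFN-γ and LPS below are those of the labels and may not include all the time with IFN-γ. LPS-only BMDMs were not analysed here.

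IRGs are large GTPases that interferons induce and that defend mouse cells against parasites and bacteria living in vacuoles. Irgm1, Irgm2 and Igtp (also called Irgm3) encode the regulatory IRGM proteins, which sit on the cell's own membranes and hold the other IRGs inactive. Iigp1 (Irga6) and the near-identical Tgtp1 and Tgtp2 (Irgb6) encode effectors, which load onto the membrane of the pathogen's vacuole and help to break it. That loading needs the ATG8 conjugation machinery of autophagy. At the promoter, GAS elements answer to IFN-γ, whereas interferon-stimulated response elements (ISREs) are bound by IRF proteins, among them IRF9 together with STAT2.

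In the RefSeq annotation of GRCm38.p6, 5 of the 6 genes lie on chromosome 11 as a pair of clusters. Irgm1 (48865245 to 48871420, minus strand), Tgtp1 (48985329 to 48992246, minus strand) and Tgtp2 (49057196 to 49064212, minus strand) form one, and Igtp (58199556 to 58207592, plus strand) and Irgm2 (58214977 to 58222783, plus strand) form the other. A promoter window of 250 bases before to 50 after the gene start was read for these 5 genes. The 120 bases just before each start are printed to show which interferon motifs the transcripts described here share. Capitals mark the ISRE core (GAAA, any 2 bases, GAAA) and the GAS element (TTCNNNGAA), and in Irgm1 they mark a pair of overlapping ISRE cores. Both motifs were searched on both strands.
Irgm1 (chr11:48871421-48871540, minus strand): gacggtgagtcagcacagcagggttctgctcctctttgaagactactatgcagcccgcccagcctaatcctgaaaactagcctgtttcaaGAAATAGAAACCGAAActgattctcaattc
Irgm2 (chr11:58214857-58214976, plus strand): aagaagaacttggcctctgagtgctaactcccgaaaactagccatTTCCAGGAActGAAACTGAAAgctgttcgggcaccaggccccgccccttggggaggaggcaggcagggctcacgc
Igtp (chr11:58199436-58199555, plus strand): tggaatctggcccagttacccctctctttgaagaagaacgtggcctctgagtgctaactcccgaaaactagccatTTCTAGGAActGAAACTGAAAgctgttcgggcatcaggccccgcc
Tgtp1 (chr11:48992247-48992366, minus strand): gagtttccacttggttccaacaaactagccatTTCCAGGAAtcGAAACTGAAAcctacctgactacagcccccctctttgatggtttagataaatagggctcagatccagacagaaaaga
Tgtp2 (chr11:49064213-49064332, minus strand): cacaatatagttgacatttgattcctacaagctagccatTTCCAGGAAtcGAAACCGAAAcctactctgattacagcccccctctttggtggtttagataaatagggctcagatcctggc

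All 5 windows held the ISRE core, against 3.43% of 32817 promoter windows of the same length, from which chromosome 18, the chromosome of Iigp1, was left out. The GAS element was found in 4 of the 5, Irgm1 being without these letters, against 8.29% of all windows. The κB motif (GGGA, any base, TTTCC), which 0.411% of all windows hold, was in none of the 5. Of 6 other IRG family genes with a window, 3 held the ISRE core, and Ifi47 held none of these motifs. In Irgm2, Igtp, Tgtp1 and Tgtp2 the GAS element was followed by 2 bases and then the ISRE core. That arrangement was looked for after the sequences had been read. It occurred in 5 of the 32817 windows, those of these 4 genes and of Gm12185, another gene of the family. The windows are not independent, because these genes arose by duplication. Within the 120 printed bases, the longest identical run was 38 bases between Irgm2 and Igtp and 27 bases between Tgtp1 and Tgtp2. A match of letters is a description and was not tested for binding.

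**Figure D1:**
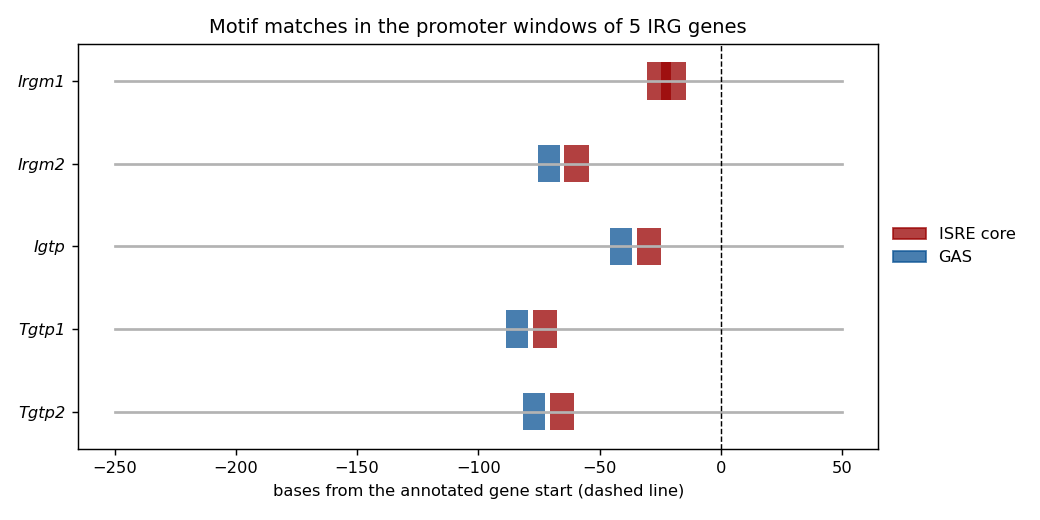
Matches of the ISRE core and the GAS element in the promoter windows of 5 IRG genes, drawn in bases from the annotated gene start. Each grey line is a window of 250 bases before to 50 after the start, and every match lies in the last 88 bases before it, with GAS before the ISRE core in 4 of 5 genes.

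Levels are CPM, counts per 1000000 counts of a library, made from the sense-strand counts without Rn45s, the ribosomal RNA precursor, and scaled by TMM factors. Each library held 1502618 to 2532496 such counts after Rn45s, which took 20.1% to 39.8%, was set aside. Macrophage markers fitted the label in BMDMs, where Csf1r, Adgre1, Cd68, Itgam, Lyz2 and Mertk all had at least 51 counts in each library. Mertk was at 0 in all 4 RAW264.7 libraries. Cd3e, Cd3g, Cd8a and Ms4a1 were at 0 in all 25 libraries, and so was Ifng, the gene of the cytokine added to the cultures. The summed markers of NK cells stayed at or below 3.34 CPM, of B cells at 0.579 CPM, of dendritic cells at 4.72 CPM and of T cells, from Cd4, at 12.7 CPM. Stromal markers summed to 15.9 to 79.9 CPM in BMDMs, the highest value being at 4 h, and to 0 in RAW264.7. Of the neutrophil markers 3 of 4 were in the files. Their sum, nearly all from S100a8, was 5.44 to 12.3 CPM in control BMDMs and 16.8 to 27.7 CPM after IFN-γ and LPS. Elane and Mpo had at most 2 counts in any library. The part of these cells in the IRG levels was not tested. In bulk RNA, fewer expressing cells and less RNA per cell cannot be told apart.

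Across the 9 conditions, the 6 transcripts were highest after 4 h of IFN-γ and LPS, where they summed to 4265 ± 123 CPM (SD, n = 3) against 67.6 ± 5.75 CPM in control BMDMs. Their sum was 337 ± 17.8 CPM at 1 h, 2322 ± 279 CPM at 12 h and 1320 ± 123 CPM at 24 h. With IL-4 it was 72.3 ± 1.38 CPM and with IL-13 77.3 ± 2.39 CPM. In RAW264.7 it was 56.1 ± 6.83 CPM (n = 2) without LPS and 227 ± 8.29 CPM with it. In each of the 6 genes, every library at 4 h lay above every library of the other 8 conditions.

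**Figure D2:**
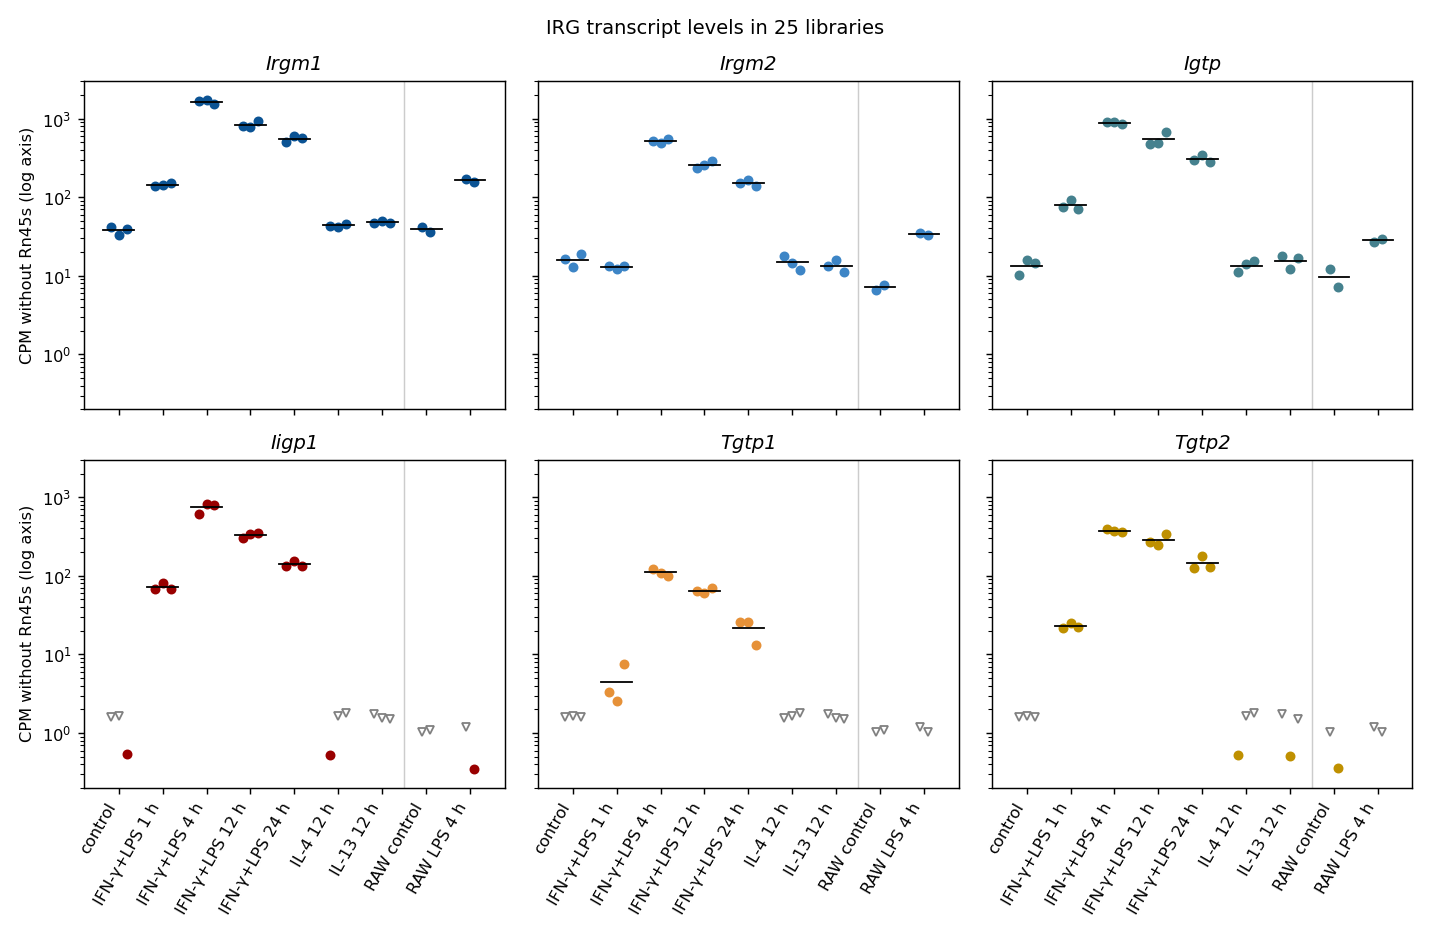
Level of each IRG transcript in every library (points, CPM without Rn45s, log axis), with the group mean as a bar where no library was at 0. Open triangles stand for libraries with 0 counts and are drawn at the level of 3 counts in that library. The regulatory genes Irgm1, Irgm2 and Igtp have counts in every library, whereas Iigp1, Tgtp1 and Tgtp2 have at most 1 count in any library without IFN-γ and LPS.

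Before stimulation the family was split. The regulatory genes were all present in control BMDMs. Irgm1 stood at 42.0, 32.6 and 39.1 CPM in the 3 libraries. Irgm2 stood at 16.1, 13.1 and 18.8 CPM, and Igtp at 10.2, 15.8 and 14.5 CPM. The effectors were at the limit of detection. Tgtp1 and Tgtp2 had 0 counts in the 3 control libraries together, which allows up to 0.539 CPM, and Iigp1 had 1 count. Per kilobase of transcript, the scale on which genes may be compared with each other, Irgm1 led in control BMDMs with 16.8 ± 2.12 CPM per kb, ahead of Igtp with 6.67 ± 1.44 and Irgm2 with 4.62 ± 0.826. Intervals and limits given for counts cover counting error only, since reads without molecular identifiers are not independent molecules.

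After 1 h of IFN-γ and LPS, Irgm1 and Igtp had risen and Irgm2 had not. Irgm1 was at 139.6, 143.8 and 150.0 CPM, with no overlap with the control libraries, a log2 fold change of 1.90 ± 0.12 (SE, n = 3 per group; adjusted p = 5.0e-18, edgeR quasi-likelihood test). Igtp was at 75.1, 92.8 and 71.5 CPM, all above the controls, with a log2 fold change of 2.52 ± 0.18 (adjusted p = 5.8e-16, edgeR). Irgm2 was at 13.5, 12.3 and 13.2 CPM, inside the control range at its upper 2 libraries. Its log2 fold change was -0.33 ± 0.22 (adjusted p = 0.269, edgeR), with a 95% interval of -0.76 to 0.10 that leaves out the changes of Irgm1 and Igtp. A gene was called where its adjusted p did not exceed 0.01 and its log2 fold change reached 1.5, and 5.04% of the genes tested were called higher at 1 h. Of the 3 genes with counts in every library, 2 were called.

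The effectors were detected at 1 h as well. Iigp1 was at 68.4, 79.95 and 67.4 CPM, from 122 to 133 counts per library. Against the single control count this is a ratio of 400 with a 95% interval of 71.8 to 15801 from the exact Poisson limits of that count. Tgtp2 was at 21.9, 25.1 and 22.3 CPM, at least 42.8-fold over the level that 3 counts in the 3 control libraries together would give. Tgtp1, with 6, 4 and 15 counts, reached at least 8.37-fold by the same rule. Iigp1, Tgtp1 and Tgtp2 passed the filter on low counts only through the stimulated groups, so no count of called genes is drawn from them against the control.

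Within a library, the ratio of Irgm2 to Irgm1 showed the lag of Irgm2 free of any scaling between libraries. Irgm2 had 38.5 to 47.9 counts per 100 Irgm1 counts in control BMDMs and 8.52 to 9.64 at 1 h. At 4 h the ratio was back at 28.7 to 36.0, still below every control library. Igtp per 100 Irgm1 counts was 24.4 to 48.3 in control BMDMs and 47.6 to 64.6 at 1 h, ranges that overlap. These ratios were chosen after the levels had been seen and are given without a test.

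**Figure D3:**
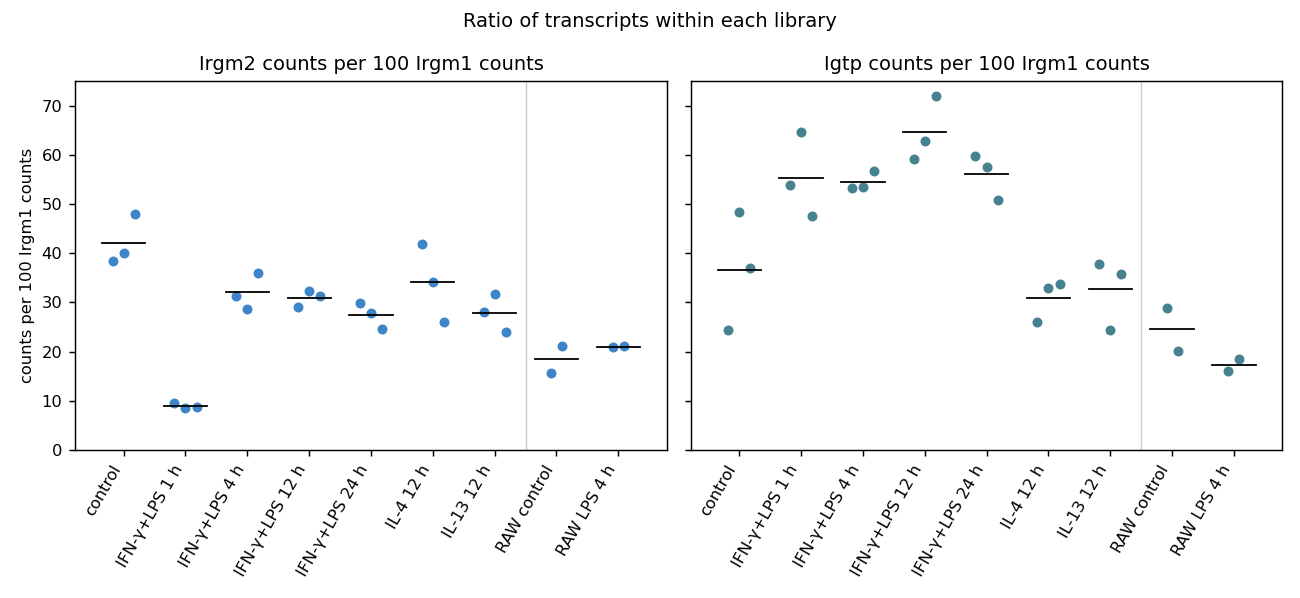
Counts of Irgm2 (left) and of Igtp (right) per 100 counts of Irgm1 within each library, with group means as bars. The 3 libraries at 1 h are the lowest for Irgm2, at 8.52 to 9.64, and the RAW264.7 libraries with LPS are the lowest for Igtp as a group, at 16.0 to 18.5.

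Between 1 h and 4 h all 6 transcripts rose, in a comparison in which 7.07% of the genes tested were called higher. Irgm2, the gene without a rise at 1 h, had the largest of the 6 steps, from 13.0 ± 0.632 to 520 ± 27.3 CPM (log2 fold change 5.29 ± 0.14, adjusted p = 4.2e-33, edgeR). Irgm1 rose by 3.47 ± 0.10 and Igtp by 3.46 ± 0.12 on the log2 scale. Iigp1 rose by 3.34 ± 0.12 (adjusted p = 1.3e-28, edgeR), Tgtp1 by 4.51 ± 0.25 and Tgtp2 by 3.99 ± 0.15. Without the third 1 h library, in which Tgtp1 was highest, its step was 5.14. The 6 steps were between 3.34 and 5.29, and no library at 4 h overlapped with any at 1 h.

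At 4 h Irgm1 stood at 1674, 1713 and 1513 CPM, 41.4-fold over the control on the fitted scale (log2 fold change 5.37 ± 0.12, adjusted p = 1.2e-37, edgeR). Irgm2 stood at 525, 491 and 545 CPM, 31.2-fold higher (4.96 ± 0.14). Igtp stood at 892, 916 and 857 CPM, 63.1-fold higher (5.98 ± 0.15). These 3 changes were all called, in a comparison in which 11.4% of genes were called higher. Iigp1 was at 612, 808 and 800 CPM, a ratio of 4115 to the single control count with a counting interval of 739 to 162528. Tgtp1 was at 123, 108 and 100.3 CPM, at least 205-fold over the limit in the controls, and Tgtp2 at 393, 370 and 356 CPM, at least 691-fold.

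Per kilobase, Irgm1 was the most abundant IRG transcript at 4 h with 723 ± 46.8 CPM per kb, followed by Igtp with 439 ± 14.6 and Iigp1 with 237 ± 35.4. Irgm2 with 150 ± 7.89 and Tgtp2 with 133 ± 6.69 came next. Tgtp1 was lowest with 39.2 ± 4.15. The place of the Tgtp genes is uncertain, because 79.8% of all stretches of 101 bases in the Tgtp1 transcript and 80.2% in Tgtp2 occur in another gene. Read pairs that lie wholly in shared sequence do not count as uniquely mapped. Both percentages are shares of single stretches, and the share of read pairs lost was not measured. No stretch of 101 bases in Irgm1, Irgm2, Igtp or Iigp1 was found in another gene, where genes with overlapping spans were left out of the search. In GENCODE M21 the spans of Irgm2 and Igtp overlap on the same strand, so stretches shared within this pair were not looked for. Whether the overlap holds in the annotation that was counted is not given in the sources used here. Reads against the sense strand were between 0.228% (Igtp) and 0.468% (Tgtp2) of each gene's reads.

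The levels of all 6 were lower at 12 h than at 4 h, to different extents. At 12 h Iigp1 retained 44.6% of its 4 h mean, Irgm2 49.8% and Irgm1 51.3%. Tgtp1 retained 58.6%, Igtp 61.3% and Tgtp2 76.7%. Each difference had an adjusted p no higher than 0.01 in edgeR, from 1.4e-13 for Iigp1 (log2 fold change -1.16 ± 0.10) to 0.0044 for Tgtp2 (-0.37 ± 0.11), but none reached the log2 fold change of 1.5 needed for a call, which 4.45% of genes did downwards. The 12 h libraries of every gene lay below its 4 h libraries. Without scaling factors, which moved the median of all genes by 0.22 on the log2 scale, Tgtp2 was at -0.16 and its adjusted p in edgeR was then above 0.01.

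**Figure D4:**
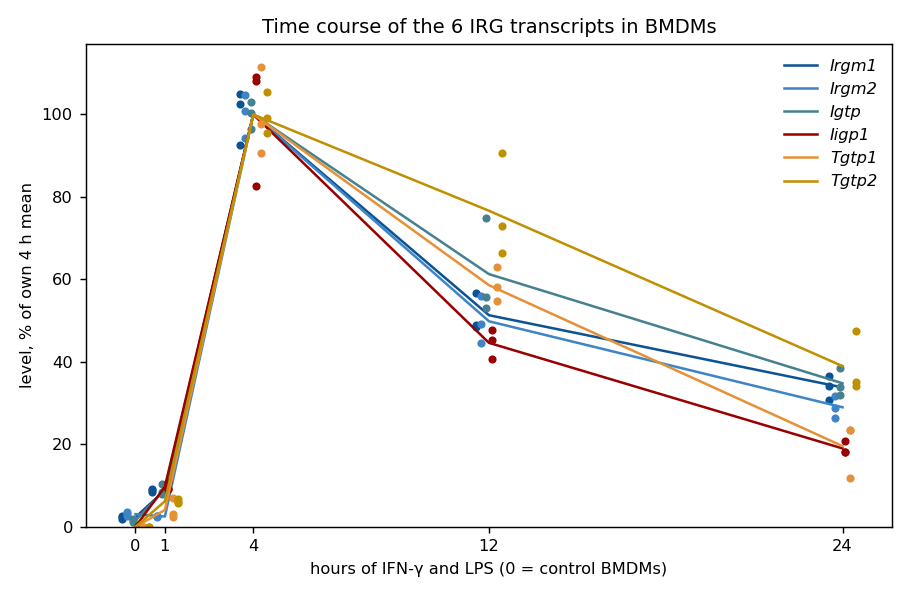
Level of each IRG transcript in BMDMs as a percentage of its own mean at 4 h (points are libraries, lines join group means). The axis gives the labelled hours of IFN-γ and LPS, with control BMDMs drawn at 0. All 6 peak at 4 h, and at 24 h the means span 19.0% for Iigp1 to 39.0% for Tgtp2.

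At 24 h Irgm1 was at 503, 596 and 558 CPM, Irgm2 at 150.4, 165 and 137 CPM, and Igtp at 300.7, 343 and 284 CPM. All these libraries were above the controls, and the log2 fold changes against the control were 3.86 ± 0.11, 3.22 ± 0.15 and 4.51 ± 0.16 (adjusted p between 9.5e-32 and 1.5e-24, edgeR), with 7.93% of genes called higher. The 12 h changes were 4.42 ± 0.12, 3.97 ± 0.14 and 5.28 ± 0.15, with 8.87% of genes called higher. Iigp1 was down to 134, 154 and 134 CPM, 19.0% of its 4 h mean, and Tgtp2 to 127, 177 and 131 CPM, 39.0%.

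Between 12 h and 24 h each of the 6 again had an adjusted p no higher than 0.01, all of them lower at 24 h. Tgtp1 was the only one called, in a comparison in which 0.867% of genes were called lower. It fell from 64.2, 60.6 and 69.6 CPM to 26.0, 25.9 and 13.1 CPM (log2 fold change -1.56 ± 0.19, adjusted p = 2.2e-08, edgeR). Without the third 24 h library the change was -1.28 and the call was lost. It was also lost when Tgtp1 and Tgtp2 were summed, at -1.03 for the pair, and without scaling factors, at -1.47. Iigp1 changed by -1.19 ± 0.11 (adjusted p = 2.3e-12, edgeR), and the other 4 by between -0.56 ± 0.09 for Irgm1 and -0.94 ± 0.11 for Tgtp2.

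The proportions between the transcripts differed along the time course. Iigp1 had 44.9 to 55.6 counts per 100 Irgm1 counts at 1 h and 24.1 to 26.6 at 24 h, with no overlap. Among the reads that could be assigned to 1 of the Tgtp genes, Tgtp2 took 76.1%, 77.4% and 78.0% at 4 h. It took 83.1%, 87.3% and 90.9% at 24 h, and the Wilson 95% intervals of single libraries at 24 h ran from 78.5% to 93.5%, against 72.5% to 81.3% at 4 h. The 3 shares at 24 h were above all 3 at 4 h. At 1 h, with 43 to 59 counts per library, the shares spread from 74.6% to 90.7%, overlapping with those at 4 h and at 24 h.

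No IRG transcript was called higher or lower after alternative activation. With IL-4, Irgm1 was at 42.5, 42.4 and 46.0 CPM, a log2 fold change of 0.19 ± 0.15 with a 95% interval of -0.11 to 0.48 (adjusted p = 0.490, edgeR). With IL-13 it was at 47.3, 50.3 and 46.7 CPM, 0.32 ± 0.15 with an interval of 0.03 to 0.61 (adjusted p = 0.136, edgeR). The libraries of both cytokines were all above the 3 controls, yet neither difference passed the test. Irgm2 changed by -0.12 (interval -0.58 to 0.35) with IL-4 and by -0.27 (-0.74 to 0.20) with IL-13. Igtp changed by -0.02 (-0.51 to 0.48) and by 0.19 (-0.29 to 0.66). No interval of these 6 changes reached a log2 fold change of 1, up or down. None of the 3 genes was called at the cutoff of 0.7 used for these cytokines, where 3.86% of genes were called with IL-4 and 5.36% with IL-13.

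The direct comparison of IL-13 with IL-4, at the same dose and time, gave log2 differences of 0.13 ± 0.14 for Irgm1, -0.15 ± 0.25 for Irgm2 and 0.21 ± 0.24 for Igtp. Their intervals were -0.15 to 0.42, -0.63 to 0.33 and -0.27 to 0.69, and 0.0649% of genes were called. The effectors remained at the limit of detection. Iigp1 had 1 count in the 3 IL-4 libraries together and 0 with IL-13, Tgtp2 had 1 count with each, and Tgtp1 had 0 with both, so no fold change is given. At 12 h, IFN-γ and LPS exceeded IL-4 by 4.26 ± 0.11 in Irgm1, 4.12 ± 0.15 in Irgm2 and 5.34 ± 0.15 in Igtp on the log2 scale (8.58% of genes called higher). Against IL-13 the differences were 4.12 ± 0.11, 4.26 ± 0.15 and 5.12 ± 0.15 (8.59% called higher). These 6 differences in Irgm1, Irgm2 and Igtp were all called, with adjusted p of at most 2.3e-38 in edgeR.

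**Figure D5:**
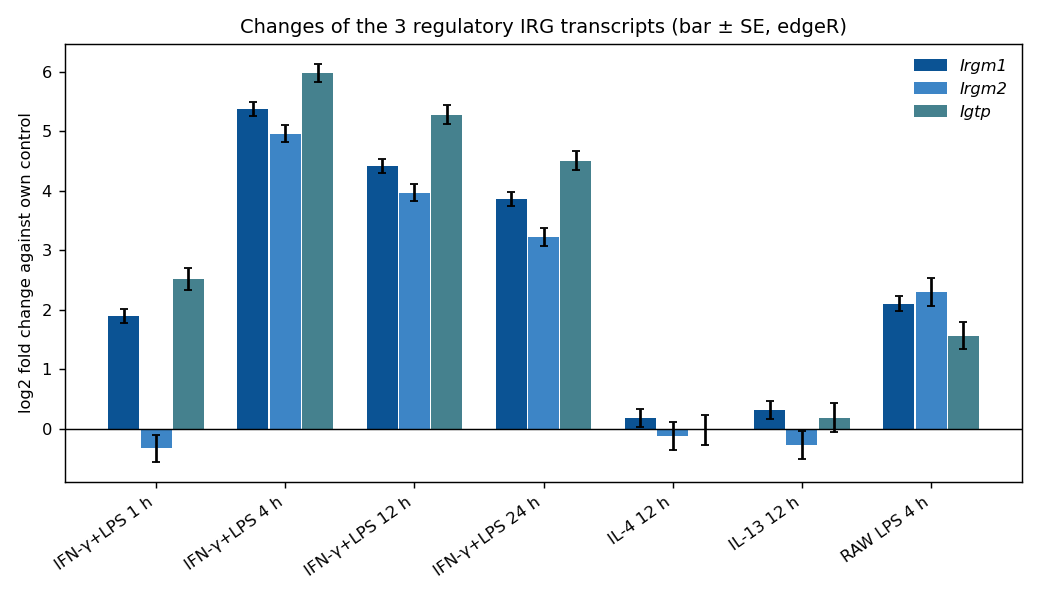
Log2 fold change of Irgm1, Irgm2 and Igtp against their own control in 6 BMDM conditions and in RAW264.7 with LPS. Bars carry the standard error derived from the edgeR test. The Irgm2 bar at 1 h is -0.33, the bars with IL-4 and IL-13 lie between -0.27 and 0.32, and those of RAW264.7 between 1.57 and 2.31.

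In RAW264.7 cells with LPS alone, Irgm1 and Irgm2 rose and the effectors stayed at the limit of detection. Irgm1 went from 42.1 and 36.0 to 170.0 and 158 CPM (log2 fold change 2.11 ± 0.12, adjusted p = 1.3e-66, edgeR, n = 2 per group). Irgm2 went from 6.61 and 7.63 to 35.5 and 33.4 CPM, 2.31 ± 0.24 (adjusted p = 3.3e-21, edgeR). Igtp went from 12.2 and 7.27 to 27.1 and 29.2 CPM, 1.57 ± 0.23 (adjusted p = 1.5e-10, edgeR). The groups did not overlap in any of the 3 genes. Irgm1 and Irgm2 passed the cutoff of 2 used for this line, as 2.39% of genes did upwards, and Igtp did not. Irgm1 fell below the cutoff without scaling factors, at 1.93. With LPS, Iigp1 had 1 count in both libraries together and Tgtp1 and Tgtp2 had 0, which allows up to 0.557 CPM.

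Resting RAW264.7 cells and resting BMDMs differed little in Irgm1, by 0.04 ± 0.15 on the log2 scale with an interval of -0.25 to 0.34. Irgm2 was lower in the line (log2 difference -1.16 ± 0.26, adjusted p = 5.8e-05, edgeR), and Igtp differed by -0.46 ± 0.27 (adjusted p = 0.123, edgeR). None reached the cutoff of 2, past which 23% of genes were called. At 4 h the line with LPS was below BMDMs with IFN-γ and LPS by log2 differences of -3.32 ± 0.11 in Irgm1, -3.92 ± 0.14 in Irgm2 and -4.97 ± 0.15 in Igtp, all 3 called, as 16.2% of genes were in that direction. Tgtp1 was at least 198-fold and Tgtp2 at least 669-fold higher in the BMDMs. For Iigp1 the ratio to the single count in the line was 3983, with a counting interval of 715 to 157330.

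The rise over 4 h was itself smaller in RAW264.7 than in BMDMs. The difference of the 2 changes was -3.36 ± 0.18 for Irgm1, -2.75 ± 0.33 for Irgm2 and -4.51 ± 0.35 for Igtp on the log2 scale (adjusted p = 3.9e-26, 8.4e-11 and 8.2e-18, edgeR interaction), and 4.88% of genes were called in that direction. The line received no IFN-γ, so cell type and IFN-γ cannot be told apart. The proportion of Igtp to Irgm1 also differed. In BMDMs at 4 h Igtp had 53.3 to 56.7 counts per 100 Irgm1 counts, and in RAW264.7 with LPS it had 16.0 and 18.5.

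In the order of levels within each gene, the first places went to the 4 h, 12 h and 24 h groups in every gene, with no overlap between neighbours. Among the other conditions, Irgm1 in RAW264.7 with LPS (164 ± 8.44 CPM) was just above Irgm1 in BMDMs at 1 h (144 ± 5.24 CPM), whereas Igtp was higher in BMDMs at 1 h (79.8 ± 11.4 CPM) than in RAW264.7 with LPS (28.2 ± 1.45 CPM). Irgm2 did not separate between control BMDMs, IL-4, IL-13 and 1 h of IFN-γ and LPS, whose neighbouring ranges overlapped. For Igtp the ranges of IL-13, IL-4, control BMDMs and control RAW264.7 overlapped in the same way.

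The 10 other IRG genes of the files did not all follow 1 course. Irgc1 had 0 counts throughout, and 9 were tested in the time course. Only 3 of the 10 passed the filter on low counts among control, IL-4 and IL-13 libraries. Most of the 9 therefore passed it through the stimulated groups. Gm4841 and F830016B08Rik had 0 counts in the controls and Gm4951 had 1, and their fitted changes depend on the prior count. Of the 9, 5 were called higher at 1 h (5.04% of all genes), 9 at 4 h (11.4%), 7 at 12 h (8.87%) and 7 at 24 h (7.93%). These counts describe the list and carry no support of their own. Ifi47, another IFN-γ-induced IRG, rose from 5.76 ± 1.77 to 107 ± 7.08 CPM at 1 h (log2 fold change 4.16 ± 0.19, adjusted p = 1.0e-23, edgeR) and to 1301 ± 65.4 CPM at 4 h. Gm12250, which encodes Irgb10, rose from 1.62 ± 0.540 to 8.27 ± 0.634 CPM at 1 h and to 437 ± 34.9 CPM at 4 h. 9930111J21Rik1 was at 25.0 ± 1.55 CPM in controls, 10.2 ± 0.118 at 1 h and 109 ± 11.8 at 4 h, and it was not called at 1 h. In RAW264.7 with LPS the only one tested was Ifi47, at 0.48, which was not called.

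Of 8 genes of the IFN-γ pathway, 2 were called higher at 1 h, as were 5.04% of all genes tested. Irf1, an interferon-induced transcription factor, went from 44.2 ± 5.24 to 1581 ± 87.4 CPM (log2 fold change 5.13 ± 0.11, adjusted p = 2.9e-37, edgeR). The kinase Jak2 rose by 1.98 ± 0.11. At 4 h 5 of 8 were called higher (11.4% of all genes), the largest change being that of Socs1, an inhibitor of JAK kinases, at 6.35 ± 0.29. Irf1 and Irf8 were the 2 called lower from 4 h to 12 h (4.45% of all genes), by -2.26 ± 0.09 and -3.74. With IL-4 and with IL-13, Jak2, Irf1 and Socs1 were called higher, Irf1 by 0.85 ± 0.13 and 0.89 ± 0.13. In either direction, 3.86% of all genes were called with IL-4 and 5.36% with IL-13. In RAW264.7 with LPS, where 2.39% of all genes were called higher, none of the 7 tested was called. Jak2 went from 31.6 ± 3.56 to 120 ± 8.25 CPM without overlap, just under the cutoff at 1.96 ± 0.13 (adjusted p = 3.5e-47, edgeR), while Irf1 was at 21.3 ± 1.86 and 23.1 ± 1.74 CPM.

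Of the 9 type I interferon genes, 1 was called higher at 1 h (5.04% of all genes), Ifnb1, which encodes interferon-β. It had 0 counts in control BMDMs, 361 in the 3 libraries at 1 h and 83 at 4 h. Ifnb1 thus passed the filter on low counts only through the stimulated groups, and its call carries no support of its own. Stat2 and Irf9, which act together at ISREs, were not called at 1 h. Stat2 was at 26.6 ± 1.2 CPM in controls, 15.7 ± 1.69 at 1 h and 499 ± 23.4 at 4 h (log2 fold change 4.17 ± 0.13 at 4 h, adjusted p = 8.7e-32, edgeR). At 4 h 6 of 9 were called higher (11.4% of all genes), with Usp18 at 9.35 ± 0.20 and Irf7 at 7.34 ± 0.15. Only 7 of the 9 passed the filter among control, IL-4 and IL-13 libraries. The 4 h count may thus hold genes that passed only through the stimulated groups, and it carries no support of its own. In RAW264.7 with LPS 2 of the 8 tested were called (2.39% of all genes higher), Usp18 at 3.03 ± 0.14 and Irf7 at 2.11 ± 0.15. Ifnb1 had 8 counts there.

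Of the 10 ATG8 conjugation genes, none was called at 1 h, when 5.04% of all genes were called higher. At each of 4 h, 12 h and 24 h 1 was called lower. This is near the share of all genes called lower, which was 11.4%, 8.42% and 6.93% at these times. These were Atg7, the E1-like enzyme, at -1.55 ± 0.15 at 4 h, and Map1lc3a at -1.72 ± 0.31 and -1.60 ± 0.28 at 12 h and 24 h. The median change of the list was -0.36, -0.47, -0.19 and -0.32 at 1, 4, 12 and 24 h, against -0.03, -0.07, -0.03 and 0.02 for all genes tested. None was called with IL-4 or IL-13, where 3.86% and 5.36% of all genes were called in either direction. In RAW264.7 with LPS none of the 9 tested was called, where 2.39% of all genes were called higher. With so few genes, having none called is near these shares.

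The genes whose course was most like the family mean were looked for among 10606 genes over the 9 group means, each profile being log2 CPM (prior count 2) less its own mean. The closest was Cxcl11, a chemokine gene, at a root-mean-square difference of 0.31, followed by Ifi47 at 0.37, Batf2 at 0.46, Slfn8 at 0.51 and Parp14 at 0.57. The members lay at 0.30 (Tgtp1) to 1.34 (Iigp1) from their own mean. For Irgm2 the nearest gene was Stat2 at 0.38 and for Iigp1 it was Gbp6, a guanylate-binding protein, at 0.44. The nearest gene to Tgtp2 was Iigp1, at 0.56. This is a description with no test, and it rests in part on the transcripts with 0 counts, whose low values are set by the prior count.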

How the data were processed

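The authors deposited raw read counts, 1 file of whole numbers per library with 24411 gene symbols. Per the labels and methods, rRNA-depleted stranded paired-end libraries were sequenced, processed with CASAVA 1.8.2, trimmed with Trimmomatic 0.33 and aligned to UCSC mm10 with STAR 2.5.1, which counts uniquely mapped reads. The annotation release is not given in the sources used here.

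The sense-strand counts without Rn45s were used (1502618 to 2532496 per library). Genes passing filterByExpr were fitted in R 4.3.3 with edgeR 4.0.16 (TMM, robust quasi-likelihood test, 1 mean per group, Benjamini-Hochberg over all genes). The IFN-γ and LPS time course made 1 fit (9568 genes), IL-4 and IL-13 another (9252) and RAW264.7 another (9406), and comparisons across these used all 25 libraries (10612). Calls needed an adjusted p not above 0.01 and an absolute log2 fold change that reached 1.5 (time course and against IL-4 or IL-13), 0.7 (IL-4, IL-13) or 2 (RAW264.7). The step was tested on simulated data: for the 4 h contrast, 200 of 200 changed genes were recovered among 9281 with 1 false call. The planted changes were large, lay only in well-counted genes with a fixed spread, and were called at a lower cutoff than 1.5. That check therefore says nothing on genes with low counts or on the cutoffs used for the calls. Intervals are 1.96 standard errors on each side. Counts against groups at 0 used a floor of 3 counts over the group.

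The members, gene lists and cutoffs were chosen with earlier results of these data known. Named were all members and, per list and comparison, at most 4 called genes by size, plus values for genes set beside a member after their values were seen (9930111J21Rik1, Irf9). 1 gene of the IFN-γ pathway list is not reported here and was left out of its counts. DESeq2 1.42.0, another normalization, filter, strand and sample set, a replicate block and each library left out were alternatives. Libraries of a group are described as biological replicates, and no 2 agreed within sampling noise (chi-square per degree of freedom 1.33 to 4.93 over 23 pairs). Sequences are from RefSeq (GRCm38.p6), lengths from GENCODE M21. Python 3.11.15, SciPy 1.17.1 and matplotlib 3.10.9 made the tables and figures.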

Additional observations from a re-analysis of the deposited data

Results flagged for a closer look

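The change over 4 h differed between RAW264.7 cells and BMDMs in all 3 IRG genes with counts in every library. The difference of the log2 fold changes, RAW264.7 minus BMDM, was -3.36 for Irgm1, -2.75 for Irgm2 and -4.51 for Igtp, each by edgeR's test of the interaction. With a library left out these ranged from -3.46 to -3.24, from -2.90 to -2.63 and from -4.82 to -4.09. The BMDMs received IFN-γ and LPS and the line LPS alone, so cell type and IFN-γ cannot be told apart. No group had more than 3 libraries, so single libraries were not screened as outliers.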

How the results depend on the processing

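No change of a called member turned direction under any alternative. For the member levels, summed over the 6 genes at 4 h, the value without TMM factors was 3124 CPM, and with Rn45s kept it was 2891 CPM, against 4265 CPM. With Tgtp1 and Tgtp2 summed, or without scaling factors (chosen after seeing the data), 0 IRG genes were called lower from 12 h to 24 h, and with a library left out 0 to 1 were. Without scaling factors 1 IRG gene, not 2, was called in RAW264.7. That setting moved the median of all genes by -0.53 at 4 h, -0.31 at 12 h and 0.69 between the cell types at 4 h. It gave 785 genes higher and 1914 lower at 4 h (1086 and 1094 with TMM), 700 and 1162 at 12 h (849 and 806), 656 and 862 at 24 h (759 and 663), 425 and 290 at 1 h (482 and 199), 482 and 1057 from 1 h to 4 h (676 and 665), 671 and 311 from 4 h to 12 h (498 and 426), 55 and 72 from 12 h to 24 h (40 and 83), 726 and 1205 against IL-4 (910 and 792), 720 and 1267 against IL-13 (912 and 790), 198 and 108 in RAW264.7 (225 and 78), 1258 and 1222 between the controls (1026 and 1411), 2167 and 1214 between the cell types at 4 h (1314 and 1724), and 660 and 355 for the interaction (359 and 518). DESeq2 called 90 genes lower with IL-4 (152 in edgeR), 142 with IL-13 (220), 2 higher between the cytokines (5) and 44 lower in RAW264.7 (78). With all 25 libraries in the fit, 0 rather than 1 was lower between the cytokines. The causes were not tested. Libraries with the same number did not deviate together (correlations -0.11 to 0.15, mean 0.0016 over 93 pairs), and with the replicate block 2 IRG genes were called higher in RAW264.7 and the change of Irgm2 at 1 h was -0.33, as without it. No call of Irgm1, Irgm2 or Igtp changed under the block. At this depth, 0 counts in a group allow up to about 0.539 CPM.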
